A study of Homo sapiens with 4 samples.

Results

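The unfolded protein response of the endoplasmic reticulum (ER) was followed by 10 genes: the chaperones HSPA5, HSP90B1 and CALR, the folding enzyme PDIA4, the co-chaperones SDF2L1 and DNAJB9, the degradation factor HERPUD1, the sensors ERN1 and ATF6, and the transcription factor XBP1. They were chosen by symbol from the 12912 genes of the deposited count table. All 10 were present under 1 Ensembl identifier each, and all 10 passed the filter on low counts that left 12335 genes to be tested. The 786-O line comes from a clear cell renal carcinoma and has no functional VHL. The 786-O-Ctrl libraries (labels 786-OTR-Ctrl, genotype given as wild type and VHL-null) came from this line, and the 786-O-VHL libraries (786-OTR-VHL, VHL restoration) from its subline with a retroviral vector for HA-tagged VHL. Both sublines carry a retroviral triple reporter of GFP, luciferase and thymidine kinase and were grown in RPMI1640 with fetal bovine serum, with 2 RNA-seq libraries each. No source says whether the libraries of a group came from separate cultures, so p-values may measure technical spread only, and each condition is represented by 1 subline.

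The ER folds the secreted and membrane proteins of a cell, and the unfolded protein response (UPR) is the program that adjusts this capacity to the load. BiP, encoded by HSPA5, binds unfolded proteins and holds the membrane sensors IRE1α (ERN1), ATF6 and PERK (EIF2AK3) inactive. When the sensors are released, IRE1α splices XBP1 mRNA into the template of an active transcription factor, ATF6 is cut to free its own transcription factor domain, and PERK phosphorylates eIF2α, which slows translation and favors ATF4. ATF6 and spliced XBP1 raise the chaperones, folding enzymes and degradation factors of the ER through promoter elements named ER stress response elements (ERSE).

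The libraries held between 2807779 and 22141263 counts, and 786-O-VHL replicate 1 was the shallowest. Since the 786-O-Ctrl columns share a replicate number, these libraries are named by their depth, deeper or shallower. VHL itself (ENSG00000134086.7, chr3:10183462-10195351) stood at 42.9 and 43.9 CPM (counts as a share of the library total, scaled by TMM factors) in the controls and at 178 and 163 CPM in replicates 1 and 2 of 786-O-VHL (log2 fold change 1.96, edgeR FDR = 2.86e-19), and reads of the vector and of the gene cannot be told apart. All 8 markers fixed for a renal carcinoma line, PAX8, VIM and KRT8 among them, were counted in every library, with a summed level of 3679 to 3698 CPM in 786-O-Ctrl and 1984 to 2003 CPM in 786-O-VHL. These markers did not change alike between the shallower control and 786-O-VHL replicate 2, which had similar depth. VIM had 25568 and 11936 counts there and CA12 5694 and 757, while KRT18 had 2320 and 2379. The epithelial markers CDH1 and EPCAM together had 3.52 to 4.23 CPM in the controls and 12.2 to 13.2 CPM with VHL. Of 9 markers of endothelial cells, leukocytes and fibroblasts, 3 were in the table, with a summed level of 10.1 to 10.2 CPM in 786-O-Ctrl and 13.0 to 13.2 CPM in 786-O-VHL, and the other 6 were not analysed here. The part of these differences in the results was not tested, and in bulk RNA fewer cells of a kind and less RNA per cell cannot be told apart. Most genes differed between the groups: 64.5% of the 12335 tested passed an edgeR FDR of 0.05, 32.6% higher and 31.9% lower in 786-O-VHL, and with library totals in place of TMM the share of calls that were higher went from 50.5% to 62.1%.

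Exact ERSE letters stood before several of these genes, and they are shown first. RefSeq promoters were read over the 250 bases before each gene's start, both strands were searched, and all 10 genes had a promoter. The ERSE was searched as CCAAT, any 9 bases and CCACG, and was found before 4 of the 10 genes, HSPA5, HSP90B1, CALR and XBP1, and before 25 of all 27305 genes (0.0916%). The shorter ERSE-II, ATTGG, any 1 base and CCACG, was found before SDF2L1 and HERPUD1 and before 18 of all genes (0.0659%). Both elements are known from promoters of UPR genes such as these. Matches before the 10 genes are thus background and no test or result of these data. Each match is printed 5′ to 3′ on the strand of the gene with 5 bases on each side, and capitals mark the match, which reads as the reverse complement where it lies on the opposite strand.
HSPA5 ERSE, chr9:128003665-128003693, minus strand: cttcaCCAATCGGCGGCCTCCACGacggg
XBP1 ERSE, chr22:29196586-29196614, minus strand: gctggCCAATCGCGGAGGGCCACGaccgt
HSP90B1 ERSE, chr12:104323989-104324017, plus strand: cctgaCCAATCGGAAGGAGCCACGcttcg
HSP90B1 ERSE, reverse, chr12:104324094-104324122, plus strand: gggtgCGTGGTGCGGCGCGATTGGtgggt
CALR ERSE, reverse, chr19:13049193-13049221, plus strand: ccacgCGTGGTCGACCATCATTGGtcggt
HERPUD1 ERSE-II, chr16:56965932-56965952, plus strand: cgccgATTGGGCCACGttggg
SDF2L1 ERSE-II, reverse, chr22:21996398-21996418, plus strand: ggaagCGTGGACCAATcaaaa
Coordinates are of GRCh37, from an exact match of the RefSeq sequence, whose own table is of GRCh38.p14. None of these stretches overlapped an annotated exon except those of HSP90B1, which lie within annotated exons of HSP90B1 and, for the first, also of TTC41P on the opposite strand.

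When 1 mismatch to the ERSE was allowed, 6 of the 10 genes had a match, against 1.67% of all genes. HSP90B1 had 4 such matches and was the only one of the 27305 genes with 3 or more. PDIA4, DNAJB9, ERN1 and ATF6 had no ERSE within 1 mismatch and no ERSE-II in this window. The ERN1 window (chr17:62207505-62207754) lies within the annotated ERN1 gene, so bases before that gene's annotated start were not searched. The main PDIA4 window (chr7:148725583-148725832, minus strand) lies partly within the annotated gene, which starts at 148725754. Only the bases of that window beyond 148725754 lie before the annotated start. PDIA4 had a further window (chr7:148722402-148722651) wholly within its gene. The UPR element core TGACGTG was found before none of the 10 genes and before 2.05% of all genes. The ERSE and ERSE-II both contain the CCAAT letters on 1 strand, which alone were found before 9 of the 10 genes and 37% of all genes. A match of the ATF4 element TGATGNAAN, found before 3.87% of all genes, lay before HERPUD1 alone of the 10.
HERPUD1 ATF4 element, reverse, chr16:56965872-56965890, plus strand: ggcggGTTGCATCAgcccg
The stretches of the HSPA5 and CALR promoter windows that lie before their first annotated exon are given in full. Per kilobase, these genes had the most abundant chaperone mRNAs of the set. Capitals mark ERSE matches with at most 1 mismatch, of which each stretch holds 1.
HSPA5 promoter, chr9:128003662-128003872, minus strand: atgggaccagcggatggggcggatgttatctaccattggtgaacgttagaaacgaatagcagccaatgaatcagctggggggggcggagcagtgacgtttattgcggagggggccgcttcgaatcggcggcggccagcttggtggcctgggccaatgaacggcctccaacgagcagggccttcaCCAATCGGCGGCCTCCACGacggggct
CALR promoter, chr19:13049173-13049391, plus strand: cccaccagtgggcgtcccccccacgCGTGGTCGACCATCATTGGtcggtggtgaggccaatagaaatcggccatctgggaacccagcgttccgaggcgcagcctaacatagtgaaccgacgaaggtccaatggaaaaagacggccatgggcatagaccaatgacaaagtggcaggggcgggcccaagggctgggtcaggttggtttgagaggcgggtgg

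Directions differed among the chaperones and between the co-chaperones, while both sensors were higher in 786-O-VHL. The chaperones CALR and HSP90B1, the folding enzyme PDIA4 and the co-chaperone SDF2L1 were lower in 786-O-VHL, by 2.11-fold to 4.39-fold. The sensor ERN1, the co-chaperone DNAJB9 and the degradation factor HERPUD1 were higher, by 2.47-fold to 3.79-fold. The chaperone HSPA5, the transcription factor XBP1 and the sensor ATF6 were higher by 1.15-fold to 1.29-fold. In all 10 genes the libraries of the groups did not overlap, which held for 80.0% of all genes tested, and all 10 passed an FDR of 0.05, where the share over all genes was 64.5%. Of the 10, 6 were higher and 4 lower. A change of over 2-fold at that FDR was found in 7 of the 10 genes, 3 higher and 4 lower, and in 17.5% of all genes, 10.0% higher and 7.52% lower. CALR was the 1 gene of the set past 4-fold with an FDR under 0.01, a rule that 4.46% of all genes met, 2.92% higher and 1.54% lower. The median log2 fold change of the 10 genes was 0.21, beside 0.02 over all genes, and the median of the absolute values was 1.33, beside 0.43. Since the 10 genes were chosen with earlier results of these data known, these comparisons with all genes are descriptions and no test. Members that lost their call under other settings are named with their values below, and the share of all genes called there was 48.7% with DESeq2, 66.6% with limma-voom, 64.4% with RLE factors, 66.3% with library totals, 62.3% without a filter, 67.9% with at least 10 counts in every library, 52.5% after thinning to equal depth and 45.8% in a test against a fold change of 1.2. It was 49.2% without the deeper control, 51.7% without the shallower one, 65.5% without 786-O-VHL replicate 1 and 49.0% without replicate 2.

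**Figure D1:**
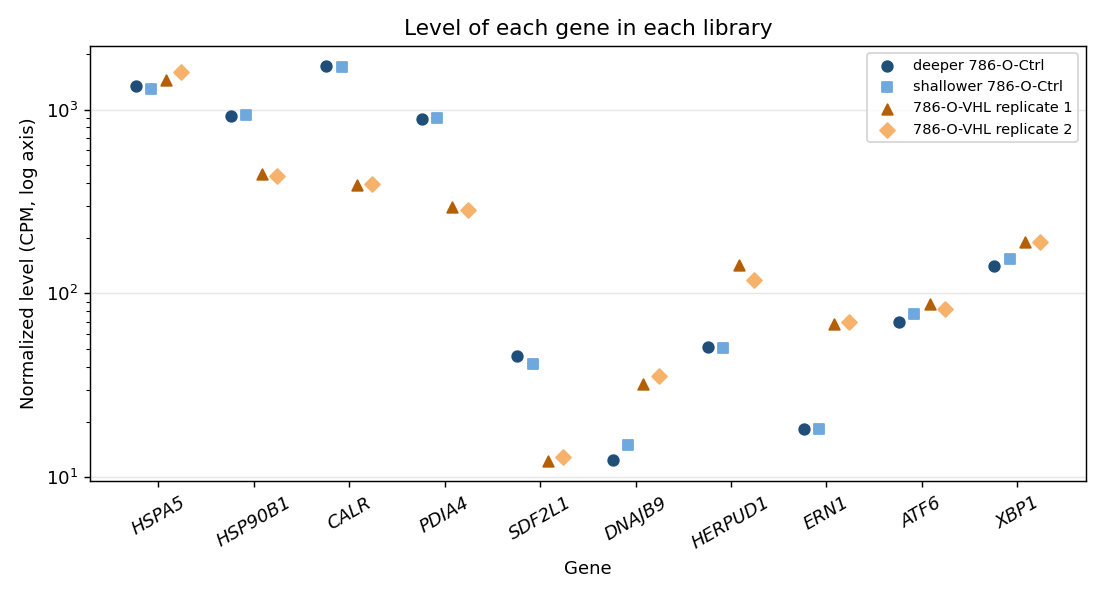
Normalized level of each gene (CPM, log axis) in each of the 4 libraries, with blue for 786-O-Ctrl and orange for 786-O-VHL. CALR fell from 1734 and 1708 CPM to 387 and 396 CPM, while HSPA5 stayed between 1298 and 1612 CPM in all libraries.

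HSPA5 (ENSG00000044574.8, chr9:127997132-128003661, minus strand) encodes BiP, the Hsp70 chaperone of the ER. Its level was 1338 CPM in the deeper control library, 1298 CPM in the shallower one, and 1456 and 1612 CPM in replicates 1 and 2 of 786-O-VHL. The 786-O-VHL libraries were both above the controls, but the gap between the groups was smaller than that between the 786-O-VHL libraries. On the log2 scale the difference was 0.22 (95% interval 0.10 to 0.35, edgeR FDR = 0.00244), with a fitted level of 117% of that of the controls. This call was lost without the deeper control library (log2 fold change 0.24, FDR = 0.0835), without the shallower one (0.19, FDR = 0.163) and in the test against a fold change of 1.2 (FDR = 0.65). The log2 fold change was 0.36 with library totals alone and 0.14 without 786-O-VHL replicate 2.

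HSP90B1 (ENSG00000166598.15, chr12:104323885-104347709, plus strand) encodes GRP94, the Hsp90 chaperone of the ER, which serves integrins and Toll-like receptors among others. Its control level was 918 and 938 CPM, and that with VHL 449 and 435 CPM. Both 786-O-VHL libraries were thus at less than 50% of either control library. This is a log2 fold change of -1.07 (SE 0.0609, edgeR FDR = 6.27e-15). HSP90B1 overlaps 1 annotated gene on its own strand and 2 on the opposite strand, and the use of strand in counting is not given. HSPA5 and HSP90B1 also have processed pseudogenes, and how reads that map to several places were counted is not given either.

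CALR (ENSG00000179218.13, chr19:13049392-13055303, plus strand) encodes calreticulin, the calcium-binding chaperone that holds glycoproteins with trimmed sugars until they fold. It had 1734 and 1708 CPM in the controls and stood at 387 and 396 CPM in 786-O-VHL. The groups were far apart beside the differences within them. The log2 fold change was -2.13 (95% interval -2.26 to -2.01, edgeR FDR = 3.52e-21), the largest fall of the set. Leaving out single libraries gave values from -2.16 to -2.12. An annotated gene on the opposite strand overlaps CALR.

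PDIA4 (ENSG00000155660.11, chr7:148700154-148725754, minus strand) encodes ERp72, a protein disulfide isomerase that makes and rearranges disulfide bonds. The controls stood at 891 and 899 CPM and the 786-O-VHL libraries at 296 and 286 CPM (log2 fold change -1.63, SE 0.0626, edgeR FDR = 1.19e-18). Libraries of the same group differed by little beside the gap between the groups. PDIA4 thus stood at 32.4% of its control level, against 47.5% for HSP90B1 and 22.8% for CALR.

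SDF2L1 (ENSG00000128228.5, chr22:21996591-21998588, plus strand) encodes a small luminal partner of ER Hsp40 proteins that assists the BiP cycle. It had 957 and 620 counts in the controls and 36 and 218 counts with VHL, and those 36 counts of replicate 1 are the fewest of the 10 genes in any library. On the CPM scale the controls were at 45.4 and 41.2, and the 786-O-VHL libraries at 12.2 and 12.9. The shallow library and the deeper one of 786-O-VHL gave nearly the same level. Its log2 fold change was -1.76 (SE 0.118, edgeR FDR = 2.37e-13), and without 786-O-VHL replicate 1 it was -1.75.

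DNAJB9 (ENSG00000128590.5, chr7:108210311-108215294, plus strand) encodes ERdj4, an Hsp40 co-chaperone of BiP that brings BiP to IRE1α and to substrates of degradation. The controls had 12.4 and 15.0 CPM, and the 786-O-VHL libraries 32.2 and 35.4 CPM. It went the opposite way from SDF2L1, the other small partner of the BiP system in the set. DNAJB9 rose by 1.35 on the log2 scale (SE 0.123, edgeR FDR = 1.58e-10), with a range of 1.19 to 1.46 when each library was left out.

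HERPUD1 (ENSG00000051108.15, chr16:56966054-56978776, plus strand) encodes HERP, a membrane protein that organizes the ubiquitin ligase complex of ER-associated degradation. Its level was 51.0 and 50.6 CPM without VHL and 143 and 118 CPM with it. The controls were nearly equal, and the shallow 786-O-VHL replicate 1 was the highest library. HERPUD1 rose by 1.30 on the log2 scale (95% interval 1.14 to 1.47, edgeR FDR = 2.17e-14), and it was 1.21 without 786-O-VHL replicate 1. Both annotated genes that overlap HERPUD1 lie on its own strand.

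ERN1 (ENSG00000178607.16, chr17:62116440-62208179, minus strand) encodes IRE1α, the kinase and endoribonuclease that splices XBP1 mRNA. The controls were at 18.3 and 18.4 CPM, and the 786-O-VHL libraries reached 67.8 and 70.2 CPM. This was the largest rise of the set, and replicates differed by little in either group. ERN1 rose by 1.92 on the log2 scale (95% interval 1.73 to 2.11, edgeR FDR = 1.59e-16), and it lay between 1.88 and 2.06 under all 13 alternatives of the processing. ERN1 overlaps 2 annotated genes on the opposite strand.

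ATF6 (ENSG00000118217.6, chr1:161736088-161947364, plus strand), the second sensor of the set, stood at 69.9 and 77.4 CPM in the controls and at 87.9 and 82.7 CPM with VHL. The groups did not overlap, but the gap between them, from 77.4 to 82.7 CPM, was smaller than the gap between the controls. The log2 fold change of ATF6 was 0.20 (95% interval 0.05 to 0.35, edgeR FDR = 0.0211). It did not pass with DESeq2 (FDR = 0.177), without the deeper control library (log2 fold change 0.12, FDR = 0.391), without 786-O-VHL replicate 2 (0.26, FDR = 0.055), after thinning to equal depth (FDR = 0.157) or against a fold change of 1.2 (FDR = 0.729), and with library totals alone it was 0.33. The intervals of ERN1 and ATF6 do not meet. ATF6 overlaps 1 annotated gene on its own strand.

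XBP1 (ENSG00000100219.16, chr22:29190543-29196585, minus strand), the transcription factor that IRE1α activates, had 141 and 154 CPM in the controls and 190 CPM in both 786-O-VHL libraries. Every 786-O-VHL library was higher than every control. XBP1 rose by 0.37 on the log2 scale (95% interval 0.23 to 0.50, edgeR FDR = 1.73e-05), and it passed under all 13 alternatives, with an FDR of at most 0.038. Counts per gene do not separate spliced from unspliced XBP1 mRNA, and likewise carry no information on the phosphorylation of IRE1α or the cleavage of ATF6.

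**Figure D2:**
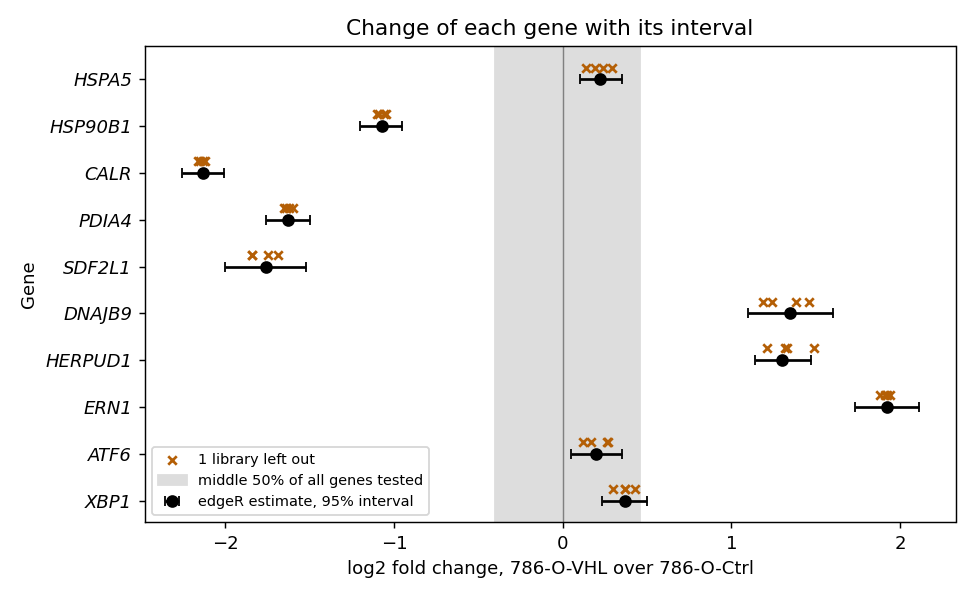
Log2 fold change of each gene, 786-O-VHL over 786-O-Ctrl, with 95% intervals from edgeR (black) and the estimates with 1 library left out (crosses), over a grey band for the middle 50% of all genes tested (-0.40 to 0.46). HSPA5, ATF6 and XBP1 lie in the band, 4 genes lie below it and 3 above it.

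Levels of different genes can be compared per kilobase only, and lengths of the canonical transcripts of the annotation were used. In 786-O-Ctrl the order of mean levels was CALR (905 CPM per kb), HSPA5 (336), HSP90B1 (334), PDIA4 (323), XBP1 (82.2), SDF2L1 (52.5), HERPUD1 (17.8), ATF6 (9.85), DNAJB9 (5.69) and ERN1 (2.32). HSPA5 and HSP90B1 overlapped in their libraries there, and no other neighbors in that order did. In 786-O-VHL the order was HSPA5 (391 CPM per kb), CALR (206), HSP90B1 (159), XBP1 (106), PDIA4 (105), HERPUD1 (45.7), SDF2L1 (15.2), DNAJB9 (14.0), ATF6 (11.4) and ERN1 (8.74), with an overlap between XBP1 and PDIA4 alone. HSPA5 thus passed CALR as the most abundant, and HERPUD1 and SDF2L1, like DNAJB9 and ATF6, changed places. All 10 genes together took 0.496% and 0.498% of the counts of the controls and 0.328% and 0.338% of those of 786-O-VHL. This sum mostly reflects HSPA5, HSP90B1, CALR and PDIA4. They held 93.5% and 93.1% of the CPM of the 10 genes in the controls and 82.9% and 84.3% with VHL.

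Ratios within a library do not depend on how libraries are scaled to each other. The ratio of HSPA5 to CALR reads per kilobase was 0.374 and 0.369 in the controls and 1.82 and 1.97 with VHL, a 5.11-fold rise of the mean. HSPA5 over PDIA4 went from 1.06 and 1.02 to 3.47 and 3.98. HSPA5 over HSP90B1 went from 1.03 and 0.982 to 2.30 and 2.63. BiP mRNA was therefore close to GRP94 and ERp72 mRNA per length in the controls and above both in each 786-O-VHL library. Among the BiP partners, HSPA5 over SDF2L1 went from 6.19 and 6.63 to 25.1 and 26.2, whereas HSPA5 over DNAJB9 went from 66.3 and 53.1 to 27.8 and 28.0. The ratio of ERN1 to ATF6 went from 0.248 and 0.225 to 0.731 and 0.803. With 2 libraries against 2, the smallest two-sided p of an exact permutation test is 0.333, so no p is given for a ratio.

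**Figure D3:**
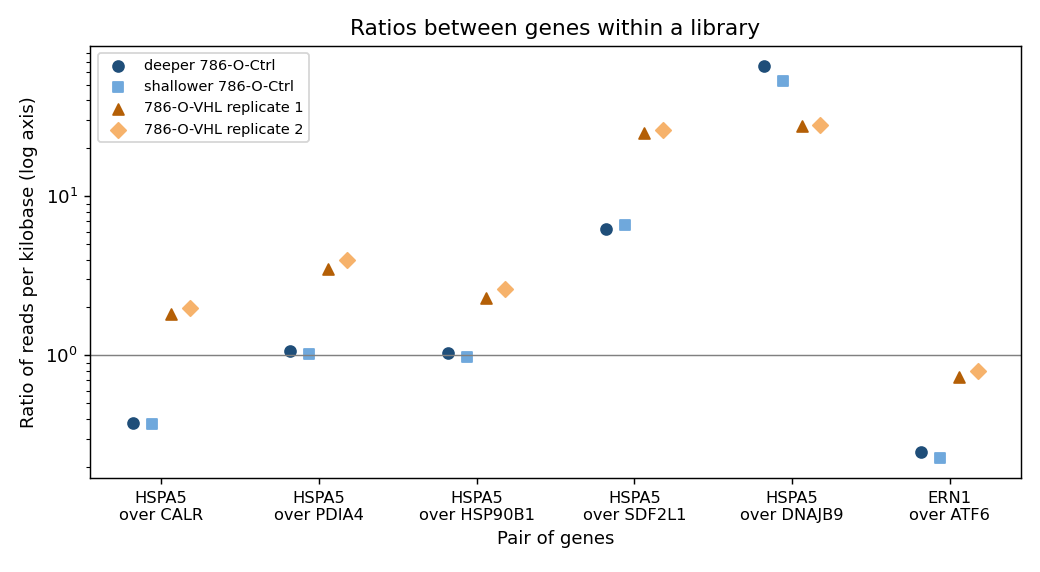
Ratio of reads per kilobase between pairs of genes within each library (log axis), with blue for 786-O-Ctrl and orange for 786-O-VHL and a line at 1. HSPA5 over CALR lies below 1 in the controls (0.374 and 0.369) and above 1 with VHL (1.82 and 1.97).

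Of 45 other ER chaperones and folding enzymes tested, 28 were lower (62.2%, beside 31.9% of all genes), 8 were higher (17.8%, beside 32.6%) and 9 did not pass an FDR of 0.05, with a median log2 fold change of -0.53 beside 0.02 over all genes. A fall of over 2-fold was found in 7 of them (15.6%, beside 7.52% of all genes) and a rise of that size in 1 (2.22%, beside 10.0%). The largest falls were those of CALU, a calcium-binding protein of the secretory pathway (782 ± 0.481 to 253 ± 10.1 CPM, SD, n = 2 each, log2 fold change -1.62), of CRELD2 (47.0 ± 1.59 to 14.9 ± 1.42 CPM, -1.60), whose gene is induced by ER stress, and of FKBP14, a prolyl isomerase that acts on collagens (50.5 ± 0.368 to 20.0 ± 2.95 CPM, -1.43). The largest rise was that of DNAJC1, a membrane Hsp40 of the ER, from 29.6 ± 0.753 to 58.9 ± 4.63 CPM (SD, n = 2 each). Among genes at FDR under 0.05 whose groups did not overlap, TXNDC12 and SEC63 came next. SEC63 is the Hsp40 of the translocon, and their log2 fold changes were 0.68 and 0.39.

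Genes of translocation, signal peptide removal and N-glycan transfer were lower in 20 of 32 cases (62.5%, beside 31.9% of all genes) and higher in 2 (6.25%, beside 32.6%), and their median on the log2 scale was -0.33. The share called in either direction, 68.8%, was near the 64.5% of all genes. SPCS3, a signal peptidase subunit, SSR2, a subunit of the translocon-associated complex, and SEC61B, of the channel itself, fell most, with log2 fold changes of -1.37, -1.24 and -0.93. TRAM1, which helps chains enter the membrane, rose from 430 ± 8.81 to 848 ± 14.0 CPM (SD, n = 2 each, log2 fold change 0.98), and TRAM2 was the other gene that rose (0.44).

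ER-associated degradation genes other than HERPUD1 went both ways. Of 34 tested, 12 were lower, 7 higher and 15 did not pass, a called share of 55.9% beside 64.5% over all genes, with a median of -0.01. The genes that fell most encode the ATPase that pulls proteins out of the membrane and its cofactors: VCP went from 607 ± 25.2 to 239 ± 11.3 CPM (SD, n = 2 each, log2 fold change -1.34), UFD1 had a log2 fold change of -0.76 and NPLOC4 one of -0.67. RHBDD1, an intramembrane protease, UBXN6, another VCP cofactor, and FAM8A1, a partner of the HRD1 ligase, rose, with log2 fold changes of 0.82, 0.59 and 0.52. The value of FAM8A1 was 0.90 without 786-O-VHL replicate 2, 0.37 without replicate 1 and 0.90 after thinning. None of these reached the 1.30 of HERPUD1. The count of called degradation genes went from 19 to 12 with DESeq2, and was likewise 12 without the deeper and 12 without the shallower control library.

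Among the other sensors and signalling genes of the UPR, 9 of 22 were lower and 5 higher, with a median of -0.05. The share called, 63.6%, was near the 64.5% of all genes. EIF2AK3, the gene of PERK, stood at 27.9 and 27.6 CPM in the controls and at 21.7 and 17.3 CPM with VHL (log2 fold change -0.61, edgeR FDR = 9.29e-05), the opposite direction from ERN1. That call was lost without 786-O-VHL replicate 2 (-0.36, FDR = 0.114) and after thinning (-0.31, FDR = 0.192). WFS1, an ER membrane protein, and CREB3L1, a transcription factor cut like ATF6, had log2 fold changes of -1.18 and -1.12, the latter lost without 786-O-VHL replicate 2 (-0.84, FDR = 0.0788) and after thinning (-0.66, FDR = 0.186). MAP3K5, the ASK1 kinase downstream of IRE1α, NFYB, a subunit of the factor that binds the CCAAT letters of the ERSE, and MBTPS2, a protease that cuts ATF6, rose by 0.58, 0.46 and 0.37 on the log2 scale. NFYB did not pass without the deeper control library (FDR = 0.0583), nor MAP3K5 after thinning (0.30, FDR = 0.289). MBTPS2 did not pass without 786-O-VHL replicate 2 (0.21, FDR = 0.199), after thinning (0.24, FDR = 0.138) or against a fold change of 1.2 (FDR = 0.0698).

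Genes of the PERK arm and of the integrated stress response were nearly all higher. Of 15 tested, 13 rose (86.7%, beside 32.6% of all genes), 1 fell and 1 did not pass, with a median log2 fold change of 1.07. A rise of over 2-fold was found in 10 (66.7%, beside 10.0% of all genes). NUPR1, a stress-induced chromatin protein, went from 32.7 ± 3.13 to 341 ± 27.2 CPM, DDIT3, which encodes the transcription factor CHOP, from 19.3 ± 0.0759 to 99.8 ± 6.33 CPM, and PPP1R15A, which encodes the eIF2α phosphatase subunit GADD34, from 94.8 ± 9.01 to 442 ± 74.0 CPM (SD, n = 2 each). Their log2 fold changes were 3.40, 2.40 and 2.25. ATF4 itself had a log2 fold change of 0.10, the smallest change of the list. EIF2S1, which encodes eIF2α, was the gene that fell (log2 fold change -0.26, edgeR FDR = 0.0012), a call lost without the shallower control library (FDR = 0.0935), with library totals (-0.13, FDR = 0.0889), after thinning (FDR = 0.0728) and against a fold change of 1.2 (FDR = 0.387). Several of these genes respond to stresses outside the ER too, and whether any eIF2α kinase was active, or which, cannot be read from mRNA.

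The chaperones of cytosol and mitochondria, the most similar genes outside the ER, were also mostly lower: 22 of 30 fell (73.3%, beside 31.9% of all genes) and 4 rose (13.3%, beside 32.6%), with a median log2 fold change of -0.57, beside -0.53 for the ER folding genes and 0.02 over all genes. HSPA8 (1090 ± 84.0 to 206 ± 43.0 CPM), HSPB1 (1335 ± 65.4 to 397 ± 22.3 CPM) and HSP90AA1 (1780 ± 57.4 to 546 ± 29.0 CPM, SD, n = 2 each) fell most. Those that rose most were LONP1, HSPB8 and HSPA9, with log2 fold changes of 0.79, 0.64 and 0.59. Cytosolic and mitochondrial genes of this list were not compared with each other. HSPA5 and HSPA8, the Hsp70 genes of ER and cytosol, thus had log2 fold changes of 0.22 and -2.46.

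**Figure D4:**
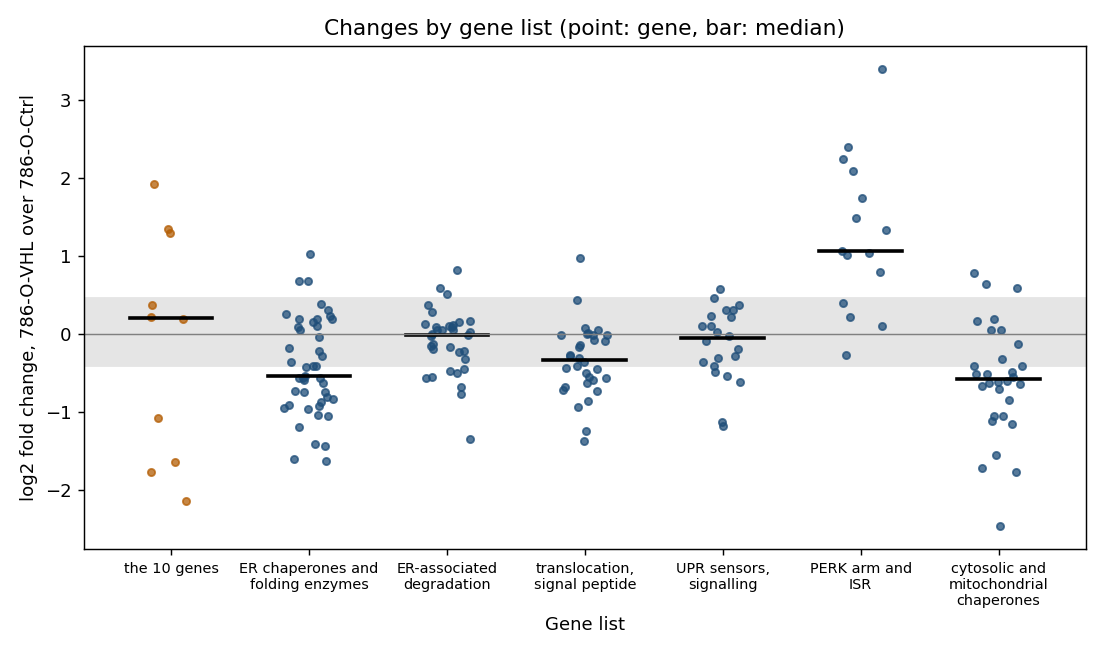
Log2 fold change (786-O-VHL over 786-O-Ctrl) of each gene by list, with a bar at the list's median and a grey band for the middle 50% of all genes tested. The 10 genes spread from -2.13 to 1.92, the ER folding list has its median at -0.53 and the PERK and integrated stress response (ISR) list at 1.07.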

How the data were processed

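RNA-seq libraries, 2 a group, were made from total RNA. The authors aligned reads to hg19 and deposited raw counts per gene without normalization. The submitters' processing notes name CASAVA and STAR. How reads were counted, with or without strand and on which annotation, is not given in the sources used here. Groups came from the sample titles. The test was that of edgeR 4.0.16 (R 4.3.3), with filterByExpr at a minimum count of 10 (12335 genes kept, 577 removed), TMM scaling and group as the only term: the quasi-likelihood F test and Benjamini-Hochberg adjustment over all tested genes (FDR). The biological coefficient of variation was 4.31%. SEs are those implied by the F statistic. Replicates differed by more than sampling noise (chi-square per degree of freedom 2.25 and 2.76). A count of 3 corresponded to between 0.142 and 1.02 CPM, which covers counting error only. Of 12912 identifiers, 12749 were found in a GENCODE annotation lifted to GRCh37, used for coordinates and lengths, which may differ from the one used for counting. Promoters are from RefSeq.

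The 10 genes and all lists were chosen with earlier results of these data known. Besides the 10 genes and VHL, the rule named at most 3 genes per direction of each list, with the largest log2 fold change among those at FDR under 0.05 whose groups did not overlap. Of the listed genes, HYOU1, DERL3, RNF5, ERN2, SESN2, HSPA1A and DNAJA3 were not analysed here. The filter on low counts left 22 of 23 counted UPR sensor and signalling genes and 30 of 31 counted cytosolic and mitochondrial chaperones. The alternatives were DESeq2 1.42.0, voom in limma 3.58.1, RLE factors, library totals, other filters, thinning, each library left out, a test against a fold change of 1.2 and a prior count of 2. Scripts were tested on simulated counts.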

Additional observations from a re-analysis of the deposited data

How the results depend on the processing

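The 10 genes kept their direction under all 13 alternatives, and ERN1, DNAJB9, HERPUD1, XBP1, CALR, PDIA4, SDF2L1 and HSP90B1 passed an FDR of 0.05 in each. HSPA5 did not pass in 3 alternatives and ATF6 in 5. The median log2 fold change of the 10 genes, 0.21 as reported, was 0.34 with library totals alone, a setting that moved the median of all genes by 0.13, and ranged from 0.18 to 0.23 with each library left out. The count of degradation genes at FDR under 0.05, 19 as reported, was 12 with DESeq2 and 12 with the test against a fold change of 1.2, and between 12 and 19 with each library left out. The count of other sensors and signalling genes, 14 as reported, was 8 after thinning and 8 with the test against a fold change of 1.2. Thinning uses fewer reads and the fold threshold asks for a larger change, and for the other settings the cause was not tested. Of 559 repeats for single genes, 538 stayed on their side of the threshold, 21 no longer passed and 0 reversed. Where 1 library of a group was left, it is assumed to vary like those of the other group. No paired analysis was possible because both 786-O-Ctrl columns carry the same replicate number. The depth of 786-O-VHL replicate 1 limits the genes with few counts.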

Other observations

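An exact ERSE or ERSE-II was found in the promoter windows of 43 genes, 6 of them among the 10 described above. Of the other 37, 23 were tested, and at an edgeR FDR under 0.05 10 were lower, 3 were higher and 10 did not pass, a called share of 56.5% beside 64.5% over all genes, with a median log2 fold change of -0.09. Of the ER genes among them, CRELD2 (-1.60), PDIA6, a disulfide isomerase (-0.95), and CANX, the membrane-bound relative of calreticulin (-0.40), were lower. SERP1, which stabilizes membrane proteins at the translocon, was higher (0.30, edgeR FDR = 0.00016). Genes in none of the lists above fell too, and GYS1 (-1.59), SHCBP1 (-1.54) and SYNPO (-1.14) fell by more than PDIA6. The remaining lower genes were PLS3 (-0.54), RUVBL2 (-0.42), TMEM120A (-0.34) and EIF2A (-0.33). Besides SERP1, TRIM5 (0.29) and NUCB1 (0.18) were higher. ERO1B, an oxidase that serves the disulfide isomerases, and FICD, which modifies BiP, had log2 fold changes of 0.20 and 0.22 and did not pass (edgeR FDR = 0.274 and 0.339). These genes were named after their values were seen.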
